A study of Anableps anableps with 8 samples.

Results

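Dorsal-marked and ventral-marked Müller glia of the *Anableps anableps* retina were compared gene by gene, with weight on the families of the extracellular matrix, adhesion and signalling. Both arms were selected on measured transcripts. A barcode with at least 500 unique molecular identifiers (UMIs) was taken as a nucleus, and a nucleus was kept as Müller glia when rlbp1a, glula, cahz, slc1a2b and kcnj10a summed to at least 5 UMIs from at least 3 of these names. The marker rule was met by 688 nuclei, and those with any UMI of rpe65a, TYRP1, GAD2 or VSX1 were then left out. This gave 436 Müller nuclei among 6430 nuclei. Of these, 63 carried a tbx5a or tbx5b UMI and no VAX2 UMI and form the dorsal-marked arm, and 224 carried VAX2 and no tbx5 and form the ventral-marked arm. A further 52 nuclei carried both markers and 97 carried neither.

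Nuclei were isolated from whole retinas of adult fish and profiled with combinatorial barcoding. The labels name no treatment, strain or sex, and both arms come from the same whole retinas, so position was read from transcripts alone. The labels name 8 technical sublibraries of a multiplexed pool. The nuclei of the deposited matrix carry 2 retina names and 2 sublibrary names, and no label matches the retina names, which are written retina 1 and retina 2. Values are therefore given for each retina, always retina 1 before retina 2, and no test was made, since nuclei of a retina are not independent replicates.

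Müller glia are the radial glia of the vertebrate retina. They span its whole depth, build its inner and outer limiting membranes, secrete matrix, recycle glutamate and retinoids and buffer potassium. In the developing eye of vertebrates, BMP signals and Tbx5 mark the dorsal side and Vax2 the ventral side, and opposing ephrin, Eph receptor and retinoic acid systems are laid out along this axis. The series asks how the ventral retina of this surface-dwelling fish, which receives light from the air, was remodelled.

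Dorsal-marked nuclei numbered 37 in retina 1 and 26 in retina 2, with 322425 and 260233 UMIs in all. Ventral-marked nuclei numbered 123 and 101, with 1092072 and 1013371 UMIs. Median depth was 6933 and 7959.5 UMIs per dorsal-marked nucleus and 6657 and 6154 per ventral-marked nucleus. No combination of wells was shared between Müller nuclei of the sublibraries, whereas 99 combinations were shared among all nuclei. The 2 retinas shared no first-round well.

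The Müller identity of both arms was read from its markers. Retinaldehyde-binding protein rlbp1a, which was used to select the nuclei, stood at 599 and 519 CPM in dorsal-marked nuclei, against 578 and 553 CPM in ventral-marked nuclei, with 35.5 CPM (UMIs per 1000000 UMIs of the summed nuclei) in all other nuclei. Markers outside the rule summed to 381.5 and 365 CPM in dorsal-marked nuclei and 290.3 and 271 CPM in ventral-marked nuclei, against 196 CPM in all other nuclei. SLC1A3 and apoea, which belong to that list, were at 0 in both arms. The gap from other nuclei was thus small for markers that the rule had not used.

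Photoreceptor RNA differed between the arms. A barcode was called photoreceptor-mixed when its share of rod or cone marker UMIs was above 10% of the median of rod or cone nuclei. This held for 18 of 63 dorsal-marked nuclei (28.6%) and 120 of 224 ventral-marked nuclei (53.6%). Rod markers summed to 868 and 1041 CPM in dorsal-marked nuclei and 1631 and 1868 CPM in ventral-marked nuclei, against 8066 CPM in rod nuclei. Cone markers summed to 803 and 803 CPM in dorsal-marked nuclei and 1549 and 1608 CPM in ventral-marked nuclei, against 5444 CPM in cone nuclei. Both lists were higher in the ventral-marked arm in each retina. VAX2 stood at 278 CPM in rod nuclei and 239 CPM in Müller nuclei, and tbx5 at 36.2 and 100.2 CPM. The arms were thus selected on a transcript that rod RNA also carries. The part of that selection in the difference was not tested. Counts for each gene family are therefore also given without the mixed barcodes, which leaves 45 dorsal-marked and 104 ventral-marked nuclei.

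**Figure D1:**
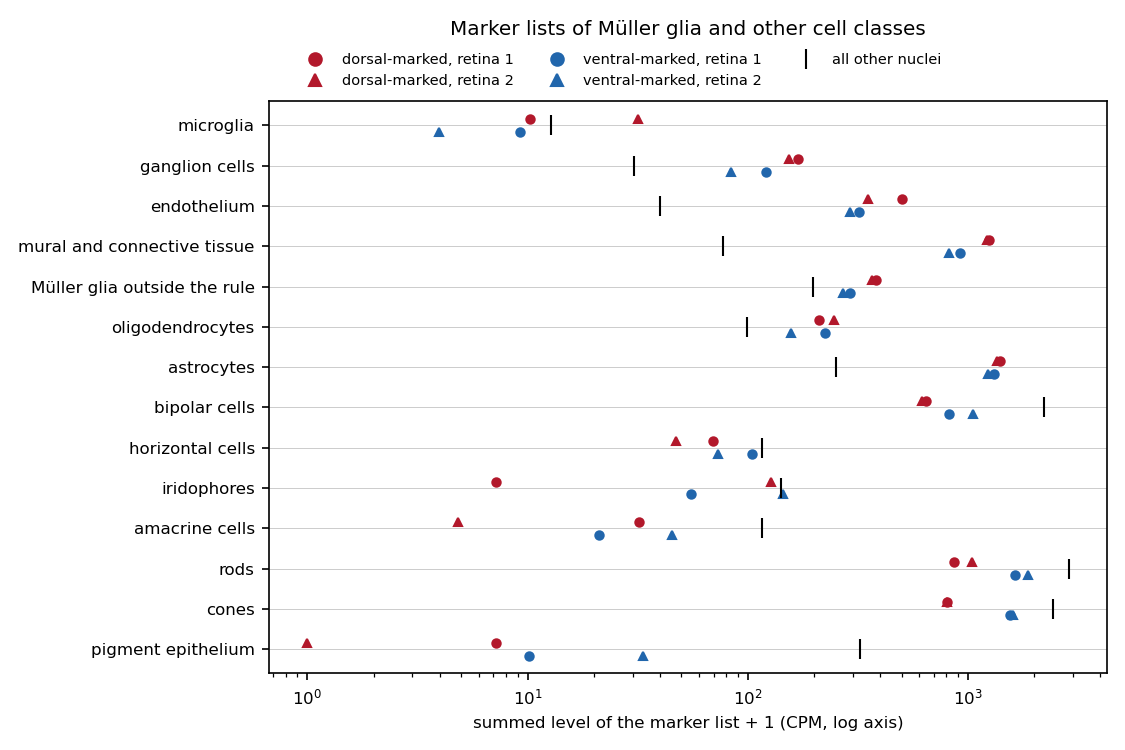
Summed level of each marker list plus 1 (CPM, log axis) in dorsal-marked nuclei (red) and ventral-marked nuclei (blue) of retina 1 (circles) and retina 2 (triangles), with all other nuclei as a black bar. Rod, cone and bipolar markers lie higher in ventral-marked nuclei in both retinas, and the ganglion cell, endothelial and mural sums lie higher in dorsal-marked nuclei in both. The ganglion cell sum is nearly all RBPMS2, the endothelial sum mostly KDR and kdrl, and the mural sum mostly PDGFRB and NOTCH3.

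The sums of other marker lists differed as well. Bipolar markers summed to 645 and 619 CPM in dorsal-marked nuclei and 824 and 1052 CPM in ventral-marked nuclei. Mural and connective tissue markers summed to 1244 and 1226 CPM in dorsal-marked nuclei and 919 and 823 CPM in ventral-marked nuclei. Of that list, PDGFRB (ENSABLG00000014718) gave 557 dorsal-marked and 1412 ventral-marked UMIs, in 63 of 63 and 202 of 224 nuclei. NOTCH3 gave 137 and 388 UMIs, whereas ACTA2 had 1 and 0, postnb 7 and 14 and rgs5b 11 and 13. Endothelial markers reached 499 and 349.7 CPM in dorsal-marked nuclei and 319 and 289 CPM in ventral-marked nuclei, with PECAM1 and FLT1 at 0 in both arms. KDR gave 134 dorsal-marked and 367 ventral-marked UMIs of that list, kdrl 94 and 267 and TIE1 24 and 6. Ganglion cell markers gave 167.5 and 154 CPM in dorsal-marked nuclei and 120.0 and 82.9 CPM in ventral-marked nuclei, with NEFL, POU4F1, POU4F3 and isl2a at 0. RBPMS2 alone gave 93 UMIs of that list in dorsal-marked and 190 in ventral-marked nuclei, whereas POU4F2 had 0 and 11, neflb 0 and 5, ISL2 0 and 3 and nefma 1 and 6 UMIs. Microglial markers stayed at or below 30.7 CPM and pigment epithelium markers at or below 32.6 CPM in each arm and retina. The pigment epithelium level was lowered by the selection, which had left out nuclei with rpe65a or TYRP1. The part of these differences in the results below was not tested, except where values without the mixed barcodes are given.

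The arm markers themselves were not equally sharp. A tbx5 UMI was found in 26.4% of Müller nuclei, 4.87% of 1744 rod nuclei and 11.1% of all nuclei outside the Müller set. VAX2 was found in 63.3% of Müller nuclei, 33.2% of rod nuclei and 41.4% of other nuclei. The median depth was 1814.5 UMIs in rod nuclei and 3749 in other nuclei. In CPM, tbx5 stood at 100.2 in Müller nuclei and 36.1 in barcodes under 100 UMIs, which stand for free RNA, whereas VAX2 stood at 239 in Müller nuclei and 220.3 in those barcodes. Of the dorsal-marked nuclei, 9 held a single tbx5 UMI, 17 held 2 and 37 held 3 or more. Of the ventral-marked nuclei, 59 held a single VAX2 UMI, 50 held 2 and 115 held 3 or more. At the edge of the Müller rule, 11 nuclei had a marker sum of 5 and 7 nuclei fell just outside with a sum of 4.

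A gene was measured when both arms together held at least 20 of its UMIs, and it was past the 2-fold rule when the log2 ratio of CPM, dorsal-marked over ventral-marked, was at least 1 or at most -1 in each retina. A count of 0 was replaced by 3 counts, which gives a bound. Of 10601 measured genes, 280 were past the rule with the dorsal-marked arm higher (2.64%) and 547 with the ventral-marked arm higher (5.16%). The median log2 ratio over all measured genes was -0.15. Without photoreceptor-mixed barcodes 5650 genes were measured, of which 220 (3.89%) were higher in dorsal-marked and 308 (5.45%) higher in ventral-marked nuclei. Intervals on ratios are 95% exact intervals on the counts and cover counting error alone, not variation between nuclei or between fish. The rule does not use the interval, so a gene past it can have an interval that includes 0.

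Among the matrix, adhesion and signalling families, 49 genes were past the rule with the dorsal-marked arm higher and 75 with the ventral-marked arm higher. Matrix families had 139 measured genes, with 10 higher in dorsal-marked and 20 higher in ventral-marked nuclei. Adhesion families had 224 measured genes, with 13 and 27. Signalling families had 350 measured genes, with 26 and 28. All these shares lie above those of all measured genes. The families were chosen with earlier results of these data known, so this excess is not independent of that choice. After thinning to 2000 UMIs per nucleus, 7 of 136 adhesion genes were higher in ventral-marked nuclei. That share was not above the 5.57% of all genes measured there. Median log2 ratios stayed near 0, at 0.13 for matrix, -0.12 for adhesion and -0.05 for signalling genes. Of the 49 genes higher in dorsal-marked nuclei, 27 stayed past the rule without the mixed barcodes and all 49 kept their direction. Of the 75 genes higher in ventral-marked nuclei, 28 stayed past it, 42 had too few UMIs left, and 13 of the 63 with a value turned the other way, 12 of them with under 20 UMIs left.

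**Figure D2:**
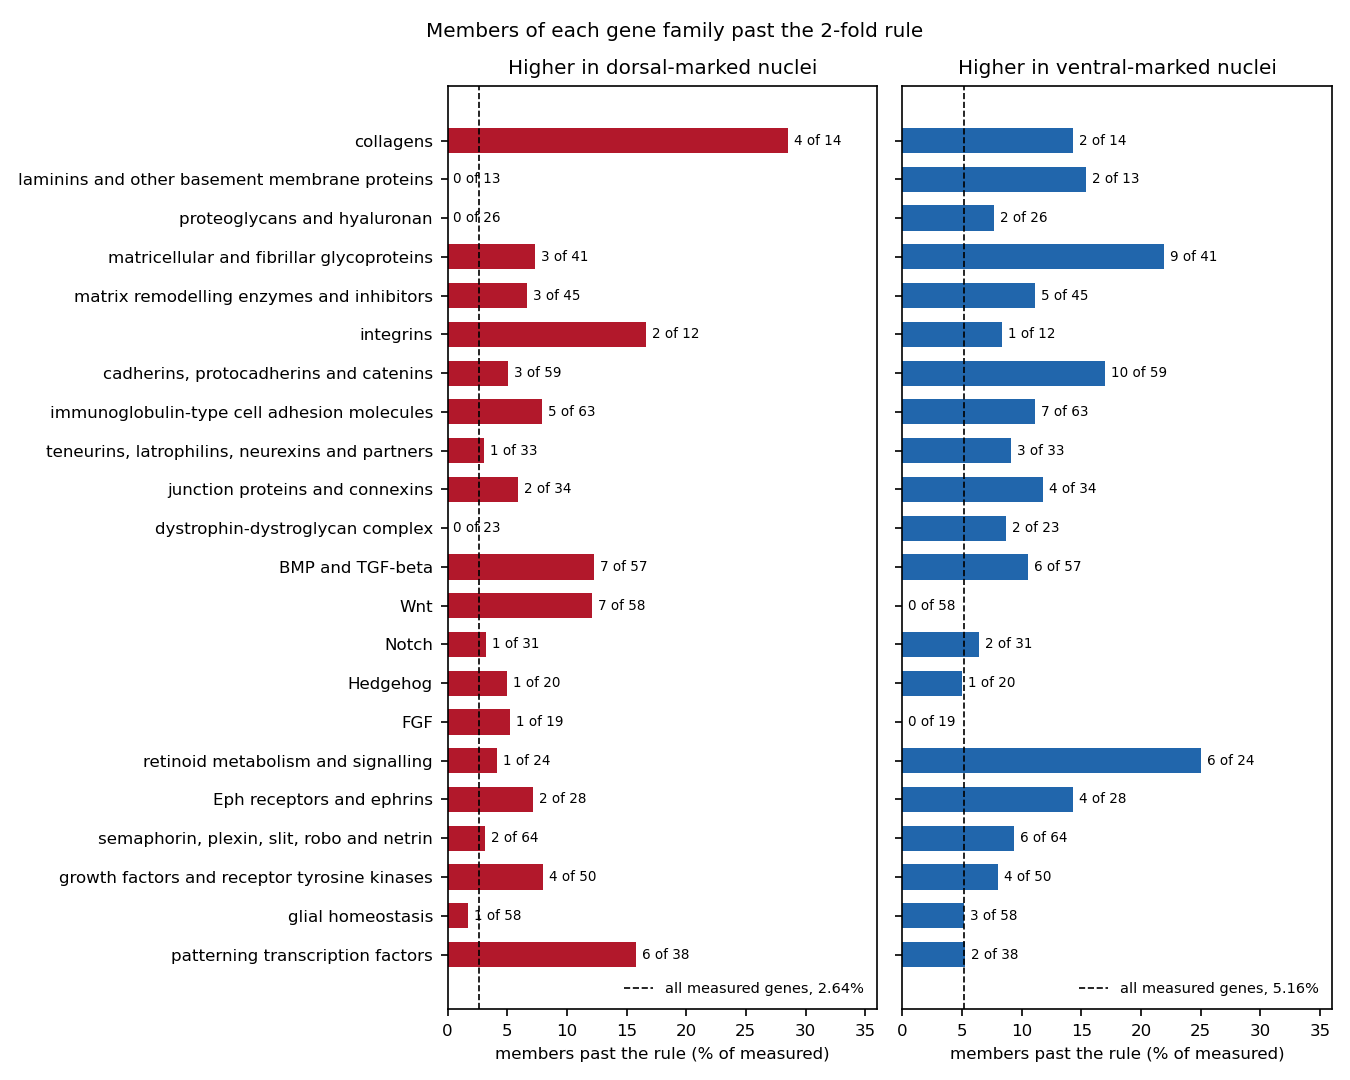
Members past the 2-fold rule in each of 22 gene families, as a percentage of the measured members, higher in dorsal-marked nuclei (left, red) and higher in ventral-marked nuclei (right, blue). Dashed lines mark all measured genes at 2.64% and 5.16%. Collagens (4 of 14) and Wnt genes (7 of 58) lie above the line on the left, and matricellular proteins (9 of 41) and retinoid genes (6 of 24) on the right.

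Of 41 measured matricellular and fibrillar glycoproteins, 3 were higher in dorsal-marked nuclei and 9 in ventral-marked nuclei. Without mixed barcodes the counts were 3 and 3 of 23, where 3 of the 9 ventral genes stayed past the rule and 5 had too few UMIs. SMOC1, a secreted calcium-binding matricellular protein that antagonises BMP signalling in Xenopus, stood at 62.0 and 30.7 CPM in dorsal-marked nuclei, against 1977 and 2077 CPM in ventral-marked nuclei. It was found with 28 UMIs in 5 of 63 dorsal-marked nuclei and 4264 UMIs in 162 of 224 ventral-marked nuclei, and the log2 ratio was -5.40 (95% interval -5.99 to -4.86). Without mixed barcodes the arms held 1 and 2150 UMIs, a log2 ratio of -10.53 (95% interval -15.83 to -8.05). Nuclei with neither arm marker had 1021 CPM and nuclei with both had 919 CPM, against 144 CPM in all other nuclei.

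Its relative SMOC2 stood at 18.6 and 15.4 CPM in dorsal-marked nuclei, against 121 and 89.8 CPM in ventral-marked nuclei, with a log2 ratio of -2.63 (95% interval -3.71 to -1.72). One of the copies of frem2b (ENSABLG00000015045), a member of the Fraser complex that anchors epithelia to basement membranes, had 3.10 and 11.5 CPM in dorsal-marked nuclei, against 140.1 and 152 CPM in ventral-marked nuclei. Its ratio was -4.41 (95% interval -6.29 to -3.04), and -4.81 without mixed barcodes. FRAS1, the large partner in that complex, stood at 4125 and 4415 CPM in dorsal-marked nuclei, against 2755 and 2625 CPM in ventral-marked nuclei, and its ratio of 0.66 was short of the rule. The frem2b copy was thus low in dorsal-marked nuclei of both retinas while its partner was not.

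HSPG2, which encodes the basement membrane proteoglycan perlecan, was nearly absent from the dorsal-marked arm. It stood at 3.10 and 3.84 CPM in dorsal-marked nuclei, against 180.4 and 242 CPM in ventral-marked nuclei, from 2 UMIs in 2 of 63 dorsal-marked nuclei and 442 UMIs in 119 of 224 ventral-marked nuclei. Its log2 ratio was -5.93 (95% interval -8.98 to -4.07), and -7.11 (95% interval -12.42 to -4.62) without mixed barcodes. TINAGL1, a secreted protein of basement membranes, had 21.7 and 7.68 CPM in dorsal-marked nuclei, against 61.4 and 104 CPM in ventral-marked nuclei and a ratio of -2.40 (95% interval -3.56 to -1.45). These were the 2 of 13 laminins and basement membrane proteins past the rule in the ventral direction, and both stayed past it without mixed barcodes, as 2 of 11 measured. None was past it in the dorsal direction in either set, the family median was 0.32, and LAMA5 (0.14) and AGRN (0.74), the members with the most UMIs, were not past it.

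Proteoglycans gave no gene higher in dorsal-marked nuclei and 2 of 26 higher in ventral-marked nuclei, and without mixed barcodes none and 2 of 12. DCN, the collagen-binding small proteoglycan decorin, had 12.4 and 3.84 CPM in dorsal-marked nuclei, against 28.4 and 23.7 CPM in ventral-marked nuclei, a log2 ratio of -1.61 (95% interval -3.29 to -0.30) and of -4.32 (95% interval -9.67 to -1.73) without mixed barcodes, where 1 dorsal UMI remained. The other, a copy of the hyaluronan-binding neurocan ncanb (ENSABLG00000006131), had a ratio of -2.93 over all nuclei. Without mixed barcodes 3 dorsal and 4 ventral UMIs were left, a ratio of 0.13. The members with the most UMIs, cspg5a and SPOCK1, had ratios of 0.61 and -0.22.

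On the dorsal side, WFDC1, a small secreted protein of the whey acidic protein type, was the matricellular gene with the largest ratio. It stood at 198 and 211 CPM in dorsal-marked nuclei, against 10.1 and 0 CPM in ventral-marked nuclei. It was found in 37 of 63 dorsal-marked nuclei and 5 of 224 ventral-marked nuclei, and its log2 ratio was 5.29 (95% interval 4.40 to 6.33), with 4.71 without mixed barcodes. IGFBP7, a secreted binder of insulin-like growth factors, had 31.0 and 30.7 CPM in dorsal-marked nuclei, against 2.75 and 1.97 CPM in ventral-marked nuclei and a ratio of 3.70 (95% interval 2.22 to 5.49), with too few UMIs left to be measured without mixed barcodes.

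Matrix-remodelling enzymes divided between the arms, with 3 of 45 higher in dorsal-marked and 5 of 45 higher in ventral-marked nuclei. Without mixed barcodes these were 2 and 6 of 34. The proteoglycan-cleaving proteases ADAMTS1 and ADAMTS9 were higher in dorsal-marked nuclei. ADAMTS1 had 93.0 and 108 CPM in dorsal-marked nuclei, against 13.7 and 3.95 CPM in ventral-marked nuclei and a log2 ratio of 3.46 (95% interval 2.69 to 4.29). ADAMTS9 had 136 and 146 CPM in dorsal-marked nuclei, against 18.3 and 18.8 CPM in ventral-marked nuclei and a ratio of 2.93 (95% interval 2.36 to 3.51). Both were higher in dorsal-marked nuclei by a similar size with and without mixed barcodes, at 3.23 and 2.84 without them.

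On the ventral side stood ADAMTS3, a procollagen-processing protease, with 12.4 and 15.4 CPM in dorsal-marked nuclei, against 108 and 165 CPM in ventral-marked nuclei, a log2 ratio of -3.30 (95% interval -4.53 to -2.30). A copy of the collagen cross-linking enzyme LOXL4 (ENSABLG00000013812) had 18.6 and 0 CPM in dorsal-marked nuclei, against 114 and 80.9 CPM in ventral-marked nuclei, a ratio of -3.25 (95% interval -4.71 to -2.10). ADAMTSL1, a relative of these proteases that lacks their catalytic domain, had 3.10 and 11.5 CPM in dorsal-marked nuclei, against 48.5 and 59.2 CPM in ventral-marked nuclei, a ratio of -2.97 (95% interval -4.87 to -1.57). All of these stayed past the rule without mixed barcodes. The secreted serine protease htra1b, at -1.38, did not, although its ratio there was at most -2.46.

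Collagens were the family with the highest share of members above in dorsal-marked nuclei, 4 of 14, with 2 of 14 above in ventral-marked nuclei. The fibrillar collagen COL2A1 stood at 518 and 523 CPM in dorsal-marked nuclei, against 194 and 201 CPM in ventral-marked nuclei, a log2 ratio of 1.40 (95% interval 1.18 to 1.61). The fibrillar col5a3a had 716 and 730.1 CPM in dorsal-marked nuclei, against 309 and 287 CPM in ventral-marked nuclei, a ratio of 1.28 (95% interval 1.09 to 1.46). A further fibrillar collagen, col11a1b, had a ratio of 1.73 (95% interval 1.30 to 2.16). The dorsal-marked values of COL2A1 and col5a3a were nearly the same in the 2 retinas.

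None of the 5 collagens measured without the photoreceptor-mixed barcodes was past the rule. COL2A1 was then at 0.88, col5a3a at 0.75 and col11a1b at 1.16, still higher in dorsal-marked nuclei. Col7a1, the anchoring fibril collagen, was at -1.33 and at 0.54 from 3 dorsal and 3 ventral UMIs left. COL11A2 and col18a1a, the members with the most UMIs that did not pass, had ratios of 0.87 and 0.69 over all nuclei.

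**Figure D3:**
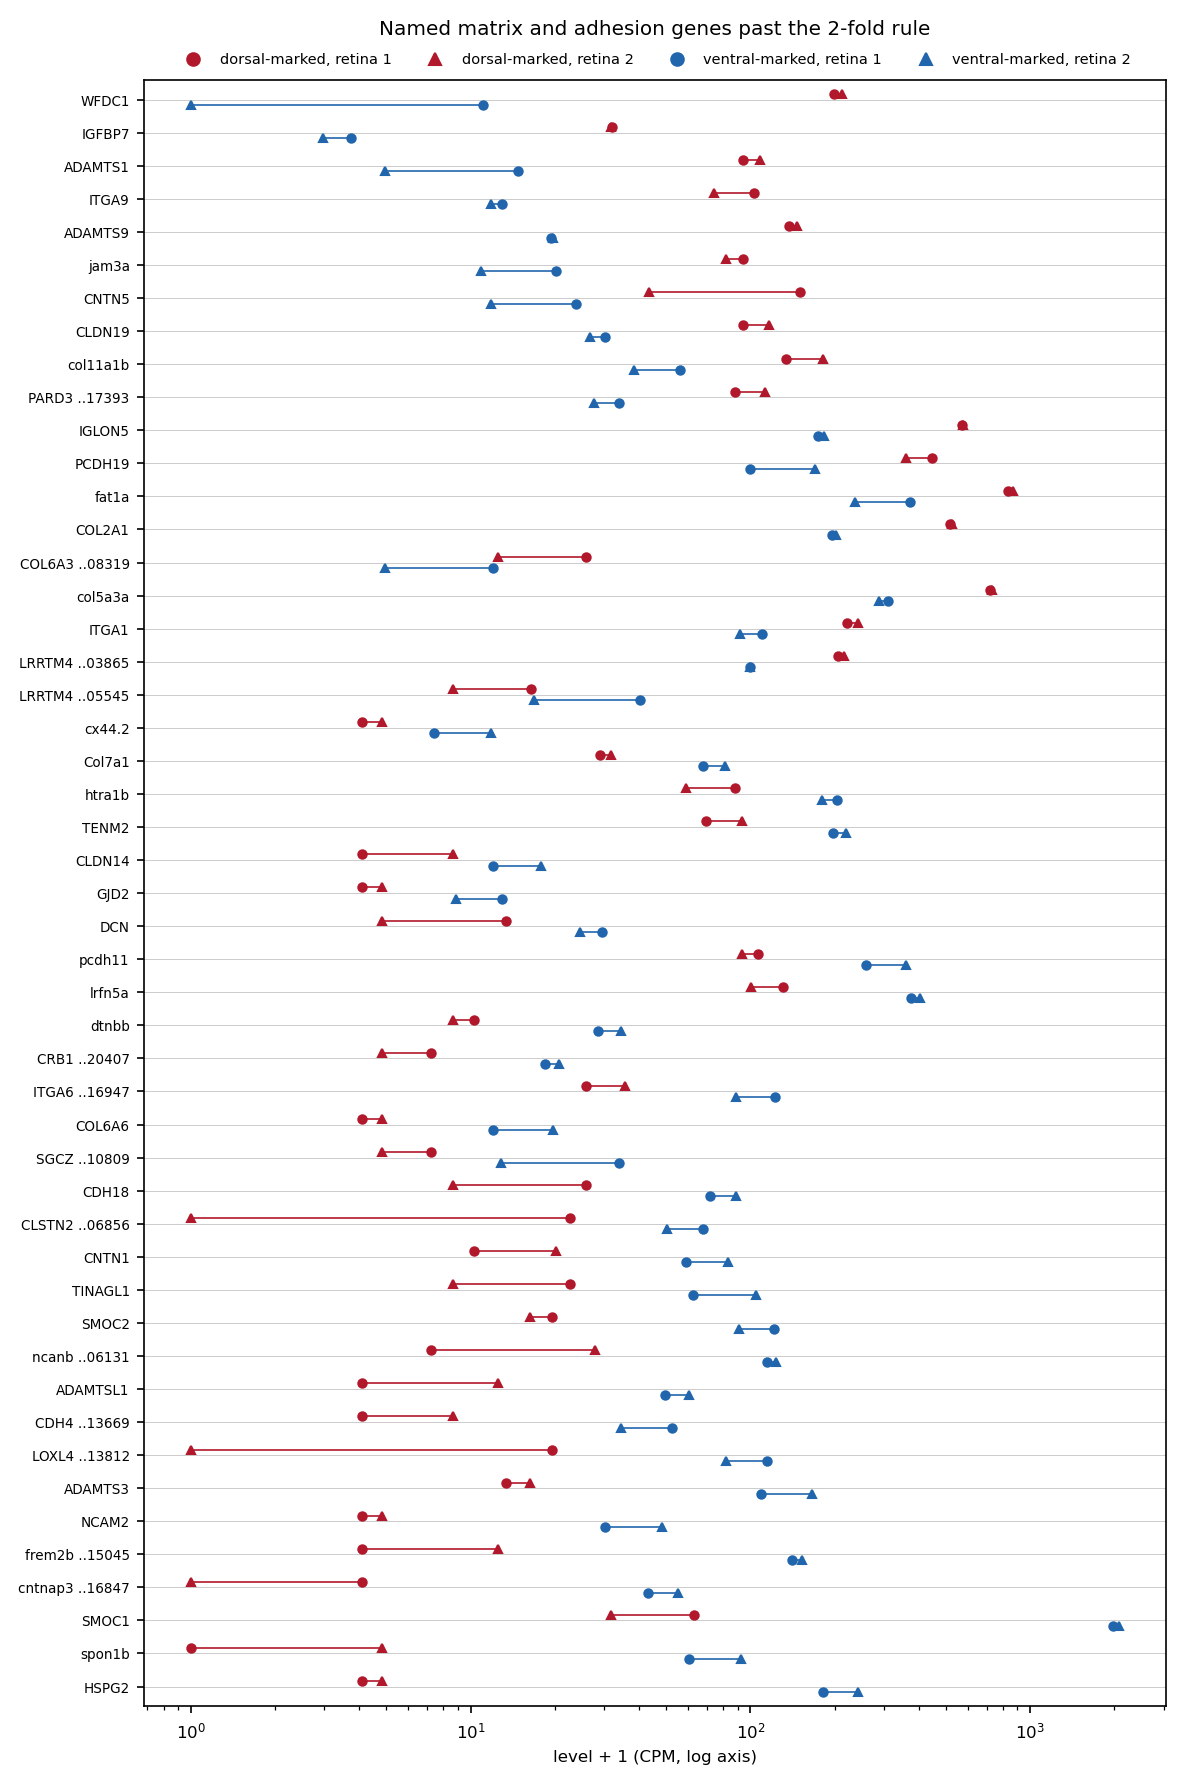
Levels plus 1 (CPM, log axis) of the named matrix and adhesion genes past the 2-fold rule, in dorsal-marked nuclei (red) and ventral-marked nuclei (blue) of retina 1 (circles) and retina 2 (triangles), ordered by log2 ratio. A pair of dots before a number stands for the start of the identifier of a gene whose symbol has copies. WFDC1, at the top, lies at 198.5 and 211 CPM in dorsal-marked nuclei, and HSPG2, at the bottom, at 180.4 and 242 CPM in ventral-marked nuclei.

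Of 12 measured integrins, receptors for matrix, 2 were higher in dorsal-marked and 1 in ventral-marked nuclei, and without mixed barcodes 1 and 1 of 11. ITGA9, whose heterodimer binds tenascin and osteopontin, had 102 and 73.0 CPM in dorsal-marked nuclei, against 11.9 and 10.8 CPM in ventral-marked nuclei, a log2 ratio of 2.97 (95% interval 2.25 to 3.73). ITGA1, a collagen receptor chain, had 220.2 and 242 CPM in dorsal-marked nuclei, against 109 and 90.8 CPM in ventral-marked nuclei, with 1.20 (95% interval 0.88 to 1.52), and lost its call without mixed barcodes at 0.82. A copy of the laminin receptor chain ITGA6 (ENSABLG00000016947) stood at 24.8 and 34.6 CPM in dorsal-marked nuclei, against 122 and 87.8 CPM in ventral-marked nuclei, a ratio of -1.85 (95% interval -2.66 to -1.14), and was at -2.89 without mixed barcodes.

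Cadherins and protocadherins gave 3 of 59 genes higher in dorsal-marked and 10 of 59 higher in ventral-marked nuclei. The giant cadherin fat1a stood at 834 and 865 CPM in dorsal-marked nuclei, against 371 and 236 CPM in ventral-marked nuclei, a log2 ratio of 1.47 (95% interval 1.30 to 1.64). PCDH19, a homophilic protocadherin, had 444 and 357 CPM in dorsal-marked nuclei, against 98.9 and 169.7 CPM in ventral-marked nuclei, a ratio of 1.61 (95% interval 1.35 to 1.86). Both stayed past the rule without mixed barcodes. Without mixed barcodes 4 and 3 of 36 genes were past it. Of the 10 ventral genes, 2 stayed past the rule, 7 had too few UMIs left and 2 of the 7 with a value had the opposite sign. One that stayed was a copy of CDH4, or R-cadherin (ENSABLG00000013669), with 3.10 and 7.68 CPM in dorsal-marked nuclei, against 51.3 and 33.5 CPM in ventral-marked nuclei and a ratio of -3.05 (95% interval -5.36 to -1.46). CDH18 was at 0.54 from 3 dorsal and 3 ventral UMIs left without mixed barcodes. The members with the most UMIs, CDH2 (ENSABLG00000019773), or N-cadherin, and CLSTN1, had ratios of 0.49 and 0.21.

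Immunoglobulin-type adhesion molecules gave 5 of 63 genes higher in dorsal-marked and 7 of 63 higher in ventral-marked nuclei. Without mixed barcodes these were 5 and 4 of 38. Of the dorsal genes, 4 stayed past the rule without mixed barcodes. The junctional adhesion molecule jam3a had 93.0 and 80.7 CPM in dorsal-marked nuclei, against 19.2 and 9.87 CPM in ventral-marked nuclei, a log2 ratio of 2.57 (95% interval 1.90 to 3.27). IGLON5, a membrane-anchored IgLON protein, had 571 and 573 CPM in dorsal-marked nuclei, against 173 and 183 CPM in ventral-marked nuclei, with 1.69 (95% interval 1.47 to 1.90). CNTN5, a contactin, had 149 and 42.3 CPM in dorsal-marked nuclei, against 22.9 and 10.8 CPM in ventral-marked nuclei, a ratio of 2.57 (95% interval 1.94 to 3.21). Its dorsal-marked level was higher in retina 1 than in retina 2, and both lay above the ventral-marked levels.

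A copy of the contactin-associated cntnap3 (ENSABLG00000016847) and CNTN1, another contactin, lay on the ventral side. The cntnap3 copy was found with 1 UMI in 1 of 63 dorsal-marked nuclei and 101 UMIs in 49 of 224 ventral-marked nuclei, a ratio of -4.80 (95% interval -10.12 to -2.29). CNTN1 had 9.30 and 19.2 CPM in dorsal-marked nuclei, against 57.7 and 81.9 CPM in ventral-marked nuclei, a ratio of -2.34 (95% interval -3.58 to -1.32). Both stayed past the rule without mixed barcodes, whereas the neural adhesion molecule NCAM2 had too few UMIs there. The members with the most UMIs, cadm1b and LSAMP, did not pass, at 0.41 and 0.01.

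Teneurins, latrophilins, neurexins and their partners gave 1 of 33 genes higher in dorsal-marked and 3 of 33 higher in ventral-marked nuclei, and without mixed barcodes 3 and 1 of 18. Copies of LRRTM4 were called in opposite directions. ENSABLG00000003865, the dorsal gene, was at 1.08 (95% interval 0.75 to 1.41). ENSABLG00000005545, with 7 dorsal and 59 ventral UMIs, was at -1.22 (95% interval -2.60 to -0.09). Neither stayed past the rule without mixed barcodes. The postsynaptic adhesion protein lrfn5a had 130.3 and 99.9 CPM in dorsal-marked nuclei, against 375 and 403 CPM in ventral-marked nuclei, a log2 ratio of -1.74 (95% interval -2.11 to -1.38), and -3.01 without mixed barcodes. TENM2 had a ratio of -1.40 over all nuclei and 1.90 without mixed barcodes, from 18 dorsal and 7 ventral UMIs. TENM2 was thus past the rule in opposite directions in these sets, and rod nuclei had 461 CPM of it.

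Junction proteins gave 2 of 34 genes higher in dorsal-marked and 4 of 34 higher in ventral-marked nuclei, and without mixed barcodes 1 and 0 of 22. The tight junction protein CLDN19 had 93.0 and 115 CPM in dorsal-marked nuclei, against 29.3 and 25.7 CPM in ventral-marked nuclei, a log2 ratio of 1.90 (95% interval 1.36 to 2.45), and was at 2.45 without mixed barcodes. A copy of the polarity protein PARD3 (ENSABLG00000017393) had a ratio of 1.71 (95% interval 1.17 to 2.25) and missed the rule without them. None of the 4 ventral junction genes had enough UMIs without mixed barcodes, among them a copy of CRB1 (ENSABLG00000020407), a polarity protein of the outer limiting membrane, at -1.85. Of these 4, CLDN14 (-1.42, 95% interval -3.78 to 0.27) and cx44.2 (-1.32, 95% interval -4.47 to 0.75) had intervals that include 0. Dystrophin complex genes gave 0 of 23 higher in dorsal-marked nuclei and 2 of 23 higher in ventral-marked nuclei (0 and 1 of 16 without mixed barcodes). The 2 were SGCZ (ENSABLG00000010809) and dtnbb, and without mixed barcodes 3 dorsal and 1 ventral UMIs of SGCZ and 2 dorsal and 2 ventral UMIs of dtnbb were left.

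The signalling families are taken in turn below. In the BMP and TGF-beta family, 7 of 57 genes were higher in dorsal-marked and 6 of 57 higher in ventral-marked nuclei. The ligand BMP4 stood at 46.5 and 73.0 CPM in dorsal-marked nuclei, against 11.0 and 3.95 CPM in ventral-marked nuclei, a log2 ratio of 2.94 (95% interval 2.04 to 3.90). The related ligand gdf6a stood at 71.3 and 46.1 CPM in dorsal-marked nuclei, against 11.9 and 0.987 CPM in ventral-marked nuclei, a ratio of 3.17 (95% interval 2.25 to 4.18). Both ligands were higher in the dorsal-marked arm in each retina, and stayed so without mixed barcodes at 3.49 and 5.12. The pseudoreceptor bambib, which damps BMP and TGF-beta signals, had 40.3 and 19.2 CPM in dorsal-marked nuclei, against 1.83 and 4.93 CPM in ventral-marked nuclei, a ratio of 3.22 (95% interval 1.89 to 4.72), and had too few UMIs without mixed barcodes. In all, 4 of 43 measured genes of the family were then higher in dorsal-marked and 5 in ventral-marked nuclei.

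Of the 6 family members higher in ventral-marked nuclei, 3 stayed past the rule without mixed barcodes and 3 had too few UMIs. CHRDL2, a chordin-like BMP antagonist, stood at 9.30 and 7.68 CPM in dorsal-marked nuclei, against 221 and 221 CPM in ventral-marked nuclei, from 5 UMIs in 5 of 63 dorsal-marked nuclei and 465 UMIs in 164 of 224 ventral-marked nuclei. Its log2 ratio was -4.69 (95% interval -6.32 to -3.45), and -6.38 (95% interval -9.44 to -4.52) without mixed barcodes. The repulsive guidance molecule rgmd, of a family of BMP co-receptors, had 12.4 and 0 CPM in dorsal-marked nuclei, against 76.0 and 112 CPM in ventral-marked nuclei, with -3.76 (95% interval -5.65 to -2.38). The BMP-binding twsg1a had 6.20 and 3.84 CPM in dorsal-marked nuclei, against 55.9 and 41.5 CPM in ventral-marked nuclei, a ratio of -3.25 (95% interval -5.55 to -1.66). These were the 3 that stayed past the rule.

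The other dorsal members of the family fell outside the limit of 6 named genes and were named after their values were seen. The 3 other ventral members, with too few UMIs without mixed barcodes, are not named. The inhibitory Smad smad6b had 350.5 and 288 CPM in dorsal-marked nuclei, against 106 and 89.8 CPM in ventral-marked nuclei, a log2 ratio of 1.72 (95% interval 1.42 to 2.01), and ID1 had 37.2 and 61.5 CPM in dorsal-marked nuclei, against 11.0 and 19.7 CPM in ventral-marked nuclei, a ratio of 1.66 (95% interval 0.88 to 2.44). Both are known as direct targets of BMP signalling, and without mixed barcodes their ratios were 1.20 and 0.91, past the rule for neither. Whether BMP signalling differed between the arms was not tested. The metalloprotease bmp1b (2.23) and the receptor BMPR2 (1.05) stayed past the rule without mixed barcodes. GDF11 and skia, with the most UMIs of those that did not pass, had ratios of -0.38 and -0.28. The direction of skia turned without mixed barcodes, to 0.79 (95% interval 0.51 to 1.08) from 230 dorsal and 193 ventral UMIs.

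Of 58 measured Wnt genes, 7 were higher in dorsal-marked nuclei and 0 in ventral-marked nuclei. Without mixed barcodes 3 of these 7 stayed past the rule, and in all 5 of 45 measured genes were higher in dorsal-marked nuclei and none in ventral-marked nuclei. The absence of ventral calls did not hold under other settings, with 3 and 3 of 40 genes without high doublet scores, 3 and 2 of 38 without both, 2 and 2 of 35 after thinning to 2000 UMIs per nucleus, 7 and 2 of 56 with a stricter Müller marker rule, and 8 and 6 of 45 in retina 2 alone. NOTUM, a secreted deacylase that inactivates Wnt ligands, stood at 118 and 273 CPM in dorsal-marked nuclei, against 11.0 and 0.987 CPM in ventral-marked nuclei. It was found in 37 of 63 dorsal-marked nuclei and 6 of 224 ventral-marked nuclei, with a log2 ratio of 4.92 (95% interval 4.09 to 5.88) and of 4.92 without mixed barcodes. ZNRF3, a ubiquitin ligase that removes Wnt receptors from the membrane, had 763 and 742 CPM in dorsal-marked nuclei, against 352 and 363 CPM in ventral-marked nuclei, with 1.08 (95% interval 0.90 to 1.25). ZNRF3 missed the rule without mixed barcodes, at 0.53.

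Genes of planar cell polarity, the branch of Wnt signalling that orients cells within a sheet, were among them. The core component prickle1a had 211 and 177 CPM in dorsal-marked nuclei, against 45.8 and 32.6 CPM in ventral-marked nuclei, a log2 ratio of 2.31 (95% interval 1.89 to 2.74). Its partner VANGL1 (ENSABLG00000001626) had 31.0 and 65.3 CPM in dorsal-marked nuclei, against 7.33 and 11.8 CPM in ventral-marked nuclei, a ratio of 2.29 (95% interval 1.40 to 3.20). Both stayed past the rule without mixed barcodes, at 2.62 and 3.06. VANGL2 (ENSABLG00000004924) and the Wnt receptor ROR2 had ratios of 1.91 and 2.17, and both missed the rule in 1 retina or more without them. LGR6 and TCF7L2, the Wnt genes with the most UMIs not past the rule, had ratios of 0.65 and 0.53.

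Of 28 measured Eph receptors and ephrins, 2 were higher in dorsal-marked and 4 in ventral-marked nuclei. Without mixed barcodes these were 2 and 3 of 19, and 1 of the 2 and 2 of the 4 stayed past the rule. The ligand efnb2a (ENSABLG00000001777) stood at 1141 and 945 CPM in dorsal-marked nuclei, against 82.4 and 52.3 CPM in ventral-marked nuclei, a log2 ratio of 3.96 (95% interval 3.69 to 4.23), and 5.06 without mixed barcodes. The copy ENSABLG00000016818 stood at 1213 and 1157 CPM in dorsal-marked nuclei, against 591 and 491 CPM in ventral-marked nuclei, with 1.13 (95% interval 0.99 to 1.27), and missed the rule without mixed barcodes at 0.79. The copy ENSABLG00000013510 held 3 UMIs in dorsal-marked and 1 UMI in ventral-marked nuclei and was not measured.

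The receptors EPHB3 and ephb2b, which bind B-type ephrins, lay on the ventral side. EPHB3 stood at 195 and 227 CPM in dorsal-marked nuclei, against 2800.0 and 2936 CPM in ventral-marked nuclei, with a log2 ratio of -3.77 (95% interval -4.04 to -3.52), and ephb2b at 133 and 38.4 CPM in dorsal-marked nuclei, against 1276 and 1256 CPM in ventral-marked nuclei, with -3.80 (95% interval -4.22 to -3.41). Without mixed barcodes the ratios were -6.73 and -5.32. Free RNA held 1170.0 CPM of EPHB3 and 301 CPM of ephb2b, so dorsal-marked nuclei lay below the free RNA for EPHB3 in both retinas. EFNB3 and EPHA3, with the most UMIs of those not past the rule, were at 0.26 and 0.32. EPHA7 (ENSABLG00000004822) and EPHB1 (ENSABLG00000015273) were past the rule in the ventral direction at -1.69 and -1.52, and neither was measured without mixed barcodes.

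**Figure D4:**
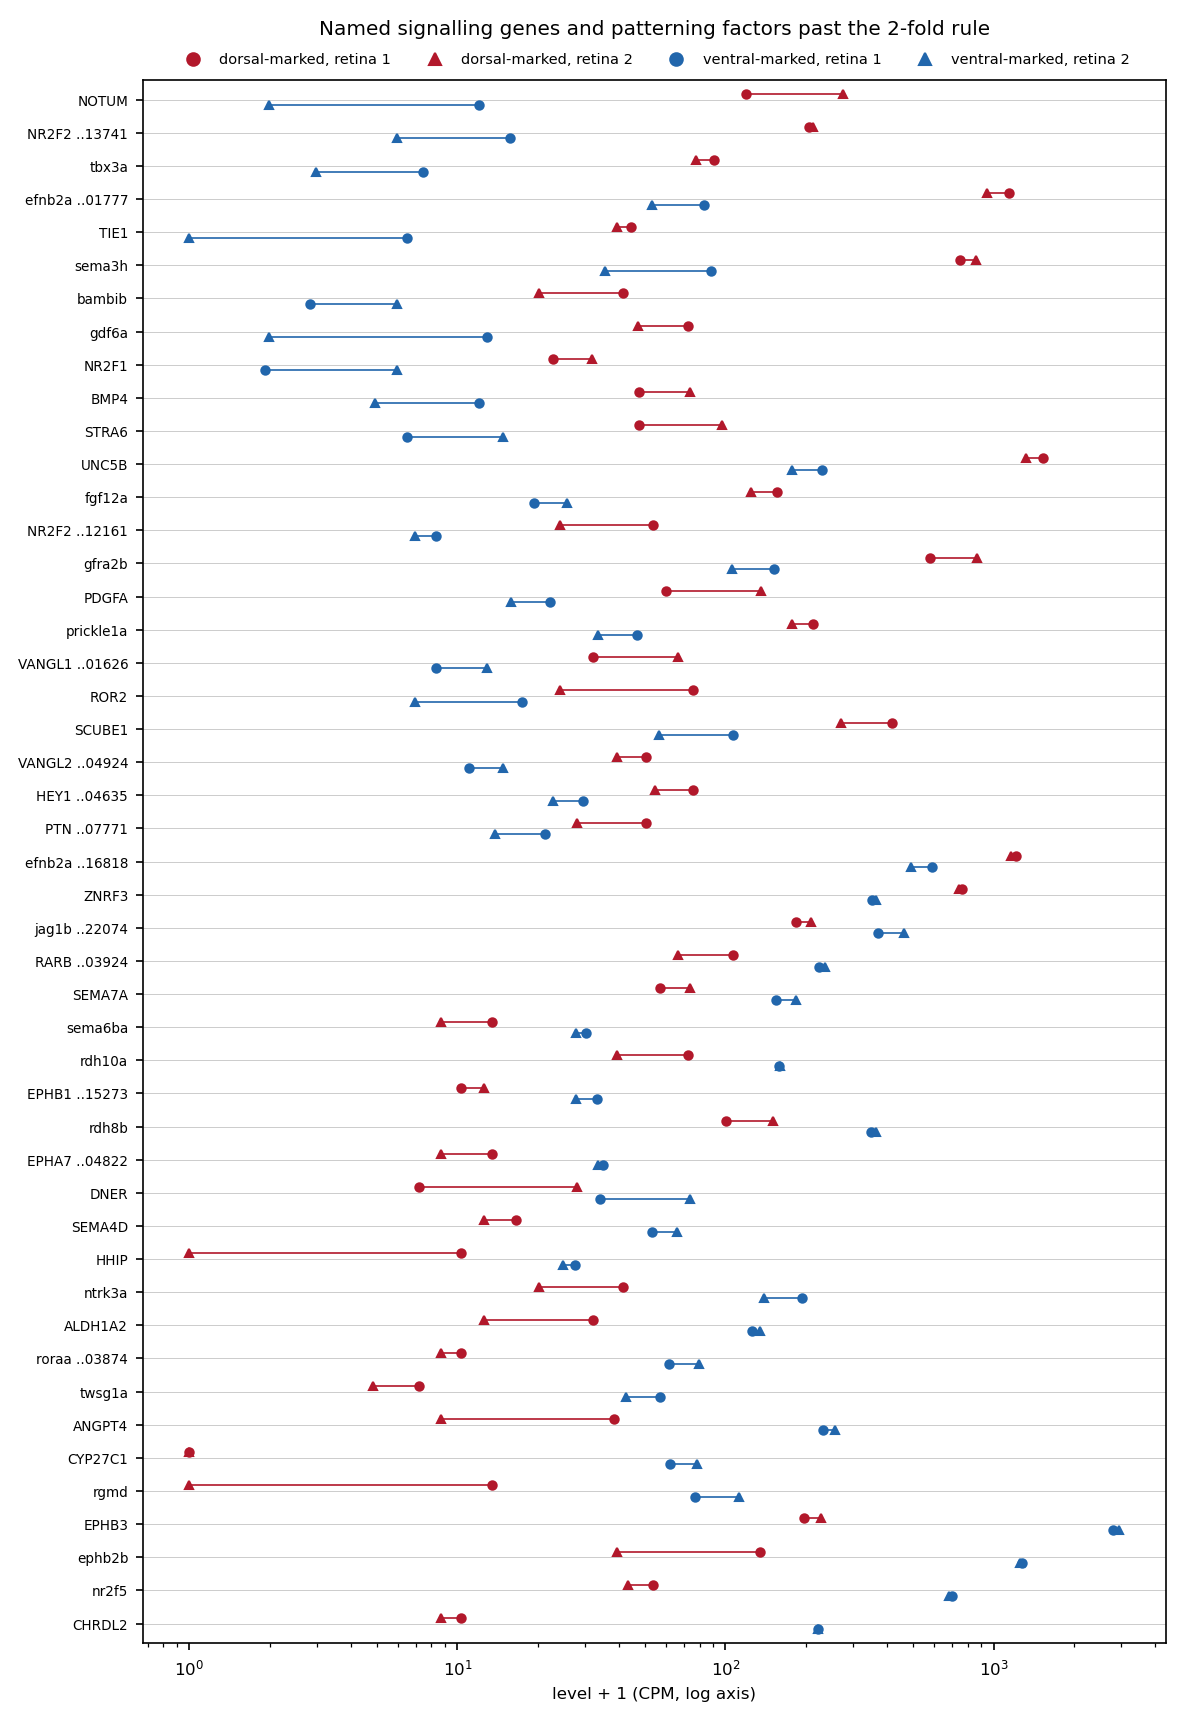
Levels plus 1 (CPM, log axis) of the named signalling genes and patterning factors past the 2-fold rule, in dorsal-marked nuclei (red) and ventral-marked nuclei (blue) of retina 1 (circles) and retina 2 (triangles), ordered by log2 ratio. A pair of dots before a number stands for the start of the identifier of a gene whose symbol has copies. NOTUM, at the top, lies at 118 and 273 CPM in dorsal-marked nuclei, and CHRDL2, at the bottom, at 221 and 221.0 CPM in ventral-marked nuclei.

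Other guidance genes gave 2 of 64 higher in dorsal-marked and 6 of 64 higher in ventral-marked nuclei. Without mixed barcodes these were 2 and 3 of 39, where 4 of the 6 ventral genes had too few UMIs. The netrin receptor UNC5B stood at 1523 and 1322 CPM in dorsal-marked nuclei, against 228 and 177 CPM in ventral-marked nuclei, a log2 ratio of 2.82 (95% interval 2.65 to 2.99). It was found in 61 of 63 dorsal-marked nuclei and 96 of 224 ventral-marked nuclei. The secreted semaphorin sema3h stood at 751 and 857 CPM in dorsal-marked nuclei, against 87.0 and 34.5 CPM in ventral-marked nuclei, a ratio of 3.69 (95% interval 3.41 to 3.98). Both stayed past the rule without mixed barcodes, at 3.22 and 3.78. SEMA4D, a membrane-bound semaphorin, had 15.5 and 11.5 CPM in dorsal-marked nuclei, against 52.2 and 65.1 CPM in ventral-marked nuclei, with -2.09 (95% interval -3.33 to -1.07) and -3.43 without mixed barcodes. SEMA6A and SEMA5A, with the most UMIs of those that did not pass, had ratios of 0.50 and 0.60.

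Of 24 measured retinoid genes, 1 was higher in dorsal-marked and 6 in ventral-marked nuclei, and 17 were past the rule in neither direction. The family median log2 ratio was -0.63, and -0.90 without mixed barcodes, where 2 of 17 genes were higher in dorsal-marked and 5 of 17 in ventral-marked nuclei. The counts were 0 and 5 of 16 after thinning to 2000 UMIs per nucleus. They were 1 and 2 of 21 in sublibrary s1 and 2 and 8 of 23 in s2. Within a cluster of 10 dorsal-marked and 69 ventral-marked nuclei they were 0 and 0 of 23. ALDH1A2, which makes retinoic acid from retinal, stood at 31.0 and 11.5 CPM in dorsal-marked nuclei, against 124 and 133 CPM in ventral-marked nuclei. Its ratio was -2.53 (95% interval -3.46 to -1.73), and -5.00 (95% interval -7.30 to -3.43) without mixed barcodes. The retinol dehydrogenase rdh10a, which supplies retinal for that step, had 71.3 and 38.4 CPM in dorsal-marked nuclei, against 158 and 159 CPM in ventral-marked nuclei, with -1.48 (95% interval -2.04 to -0.96). The retinoic acid receptor RARB (ENSABLG00000003924), itself a target of retinoic acid in mammals, had 106 and 65.3 CPM in dorsal-marked nuclei, against 222 and 234 CPM in ventral-marked nuclei, with -1.38 (95% interval -1.82 to -0.96). Of the 6 genes, 4 stayed past the rule without mixed barcodes, these 3 among them.

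CYP27C1, which converts vitamin A1 to vitamin A2 in fish and amphibians and so shifts photopigments to longer wavelengths, was not found in dorsal-marked nuclei. It had 0 UMIs there and 145 UMIs in 67 of 224 ventral-marked nuclei, or 61.4 and 77.0 CPM, a log2 ratio of at most -3.74. The retinol transporter STRA6 was the gene on the dorsal side, with 46.5 and 96.1 CPM in dorsal-marked nuclei, against 5.49 and 13.8 CPM in ventral-marked nuclei, a ratio of 2.85 (95% interval 2.04 to 3.71). Outside the Müller set, the same arm markers gave the opposite direction for both genes. There CYP27C1 had 97 dorsal and 200 ventral UMIs, a ratio of 2.10 (95% interval 1.74 to 2.46), at 2.80 and 0.99 per retina. STRA6 was at -1.57 (95% interval -1.86 to -1.29) there, and neither was past the rule. The nuclei outside the Müller set include pigment epithelium. Its markers summed to 322 CPM there, against 3.43 CPM in dorsal-marked and 20.4 CPM in ventral-marked Müller nuclei. The part of cell class in the opposite direction was not tested. The photoreceptor retinol dehydrogenase rdh8b was past the rule at -1.54 and missed the minimum without mixed barcodes. The retinoic acid receptor raraa was at 0.84, and the fixed degrading enzyme CYP26C1, with 7 UMIs in dorsal-marked and 26 in ventral-marked nuclei, was at -0.04 (95% interval -1.49 to 1.20). Of its 7 dorsal UMIs, 6 lay in 1 nucleus, and the ratio was -2.15 without the top nucleus of each arm and -3.55 (95% interval -8.93 to -0.87) without mixed barcodes, from 1 dorsal and 17 ventral UMIs. No UMI of CYP26A1 was found in either arm.

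Growth factors and receptor tyrosine kinases gave 4 of 50 genes in each direction, and without mixed barcodes 3 of 28 higher in dorsal-marked and 7 of 28 in ventral-marked nuclei. The ligand PDGFA had 58.9 and 134 CPM in dorsal-marked nuclei, against 21.1 and 14.8 CPM in ventral-marked nuclei, a log2 ratio of 2.36 (95% interval 1.74 to 3.00), and the GDNF family receptor gfra2b had 580.0 and 868 CPM in dorsal-marked nuclei, against 150.2 and 105 CPM in ventral-marked nuclei, with 2.47 (95% interval 2.24 to 2.69). Both stayed past the rule without mixed barcodes. TIE1, an endothelial receptor and a member of the endothelial marker list above, had 43.4 and 38.4 CPM in dorsal-marked nuclei, against 5.49 and 0 CPM in ventral-marked nuclei, with 3.85 (95% interval 2.52 to 5.43), and had too few UMIs without mixed barcodes. On the ventral side, the angiopoietin ANGPT4 had 37.2 and 7.68 CPM in dorsal-marked nuclei, against 229.8 and 255 CPM in ventral-marked nuclei, with -3.33 (95% interval -4.21 to -2.57), and the neurotrophin receptor ntrk3a had 40.3 and 19.2 CPM in dorsal-marked nuclei, against 192 and 138 CPM in ventral-marked nuclei, with -2.43 (95% interval -3.20 to -1.75). Without mixed barcodes ANGPT4 was at -4.32 and ntrk3a, with 1 dorsal UMI, at -6.56 (95% interval -11.87 to -4.06).

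Notch, Hedgehog and FGF families each had at most 2 members past the rule in a direction. Without mixed barcodes Notch had 0 dorsal and 1 ventral of 24 genes, Hedgehog 1 and 1 of 14 and FGF 1 and 1 of 9. Notch gave 1 of 31 genes higher in dorsal-marked and 2 of 31 in ventral-marked nuclei. The Notch target HEY1 (ENSABLG00000004635) was at 1.37, and 0.49 without mixed barcodes. The ligand jag1b (ENSABLG00000022074) was at -1.09 and at 1.19 from 11 dorsal and 7 ventral UMIs left without mixed barcodes, and rod nuclei held 1727 CPM of it. Hedgehog gave SCUBE1, of a family that helps release Hedgehog ligand, at 416 and 269 CPM in dorsal-marked nuclei, against 105 and 55.3 CPM in ventral-marked nuclei, with 2.11 (95% interval 1.81 to 2.41), and the ligand-binding inhibitor HHIP at -2.29. PTCH1 and BOC, receptors of Hedgehog, were at 0.35 and 0.48. The intracellular FGF-homologous factor fgf12a was the FGF gene past the rule, with 155 and 123 CPM in dorsal-marked nuclei, against 18.3 and 24.7 CPM in ventral-marked nuclei, a ratio of 2.72 (95% interval 2.18 to 3.28).

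Patterning transcription factors gave 6 of 38 genes higher in dorsal-marked and 2 of 38 higher in ventral-marked nuclei, and without mixed barcodes 5 and 2 of 23. Of the 6 dorsal genes, 4 then stayed past the rule and 2 had too few UMIs. The T-box repressor tbx3a had 89.9 and 76.8 CPM in dorsal-marked nuclei, against 6.41 and 1.97 CPM in ventral-marked nuclei, a log2 ratio of 4.30 (95% interval 3.26 to 5.51). Its relative tbx2b had 121 and 123 CPM in dorsal-marked nuclei, against 62.3 and 65.1 CPM in ventral-marked nuclei and missed the rule at 0.94 (95% interval 0.50 to 1.36), with 1.93 without mixed barcodes. TBX2 had 1 UMI in dorsal-marked and 21 in ventral-marked nuclei, a ratio of -2.54 (95% interval -7.91 to 0.10).

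Nuclear receptors of the COUP-TF type lay on both sides. NR2F2 (ENSABLG00000013741) stood at 205 and 211 CPM in dorsal-marked nuclei, against 14.7 and 4.93 CPM in ventral-marked nuclei, a log2 ratio of 4.38 (95% interval 3.70 to 5.12), and its copy ENSABLG00000012161 had a ratio of 2.57 (95% interval 1.55 to 3.64). NR2F1 had 21.7 and 30.7 CPM in dorsal-marked nuclei, against 0.916 and 4.93 CPM in ventral-marked nuclei, with 3.17 (95% interval 1.73 to 4.83). That copy and NR2F1 were the 2 with too few UMIs without mixed barcodes. The related nr2f5 ran the other way with 52.7 and 42.3 CPM in dorsal-marked nuclei, against 696 and 679 CPM in ventral-marked nuclei, a ratio of -3.84 (95% interval -4.43 to -3.30). Without mixed barcodes nr2f5 had 0 dorsal and 567 ventral UMIs, a ratio of at most -7.02. Free RNA held 232 CPM of nr2f5.

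Glial homeostasis genes, taken as a comparison, gave 1 of 58 higher in dorsal-marked and 3 of 58 higher in ventral-marked nuclei, and a median log2 ratio of -0.00055. Without mixed barcodes 1 and 5 of 36 were, so the ventral share was then above that of all genes, and without high doublet scores 0 and 6 of 35. The glutamate transporter slc1a2b, a gene of the selection rule, was at 0.10 and the bicarbonate transporter slc4a4a at 0.13. Without mixed barcodes slc1a2b was higher in ventral-marked nuclei, at -0.54 (95% interval -0.72 to -0.36), and slc4a4a was at 0.04. GFAP, the intermediate filament of reactive glia, had 86.8 and 92.2 CPM in dorsal-marked nuclei, against 38.5 and 40.5 CPM in ventral-marked nuclei, a ratio of 1.18 (95% interval 0.65 to 1.70), and 0.19 without mixed barcodes. The 3 ventral calls over all nuclei, slc1a2a, SLC4A7 and slc38a3a (ENSABLG00000017762), were not among those 5, and SLC4A7 was at 1.12 without mixed barcodes from 12 dorsal and 8 ventral UMIs.

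Some genes outside these families were among the 10 with the largest ratio bounds on each side. The potassium channel subunit kcng4a had 195 and 149.9 CPM in dorsal-marked nuclei, against 21.1 and 11.8 CPM in ventral-marked nuclei, a log2 ratio of 3.40 (95% interval 2.83 to 3.99), and stayed past the rule without mixed barcodes. EBF3, a transcription factor of neurons, had 23 UMIs in 3 dorsal-marked nuclei and 1 UMI in ventral-marked nuclei, so few nuclei carry its ratio of 6.38 (95% interval 3.75 to 11.74), and no UMI was left in either arm without mixed barcodes.

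TH, the rate-limiting enzyme of dopamine synthesis, had 0 UMIs in dorsal-marked nuclei and 150 UMIs in 28 of 224 ventral-marked nuclei. In ventral-marked nuclei this was 75.1 and 67.1 CPM, against 3.92 CPM in all nuclei outside the Müller set, and the log2 ratio was at most -3.79. Within the Müller set, clustered without the arm genes, a cluster of 26 nuclei held 80 TH UMIs in 9 nuclei. The gene ENSABLG00000003072 had 3 UMIs in 3 dorsal-marked nuclei and 253 UMIs in 7 ventral-marked nuclei, and its ratio was at most -0.68 without mixed barcodes.

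**Figure D5:**
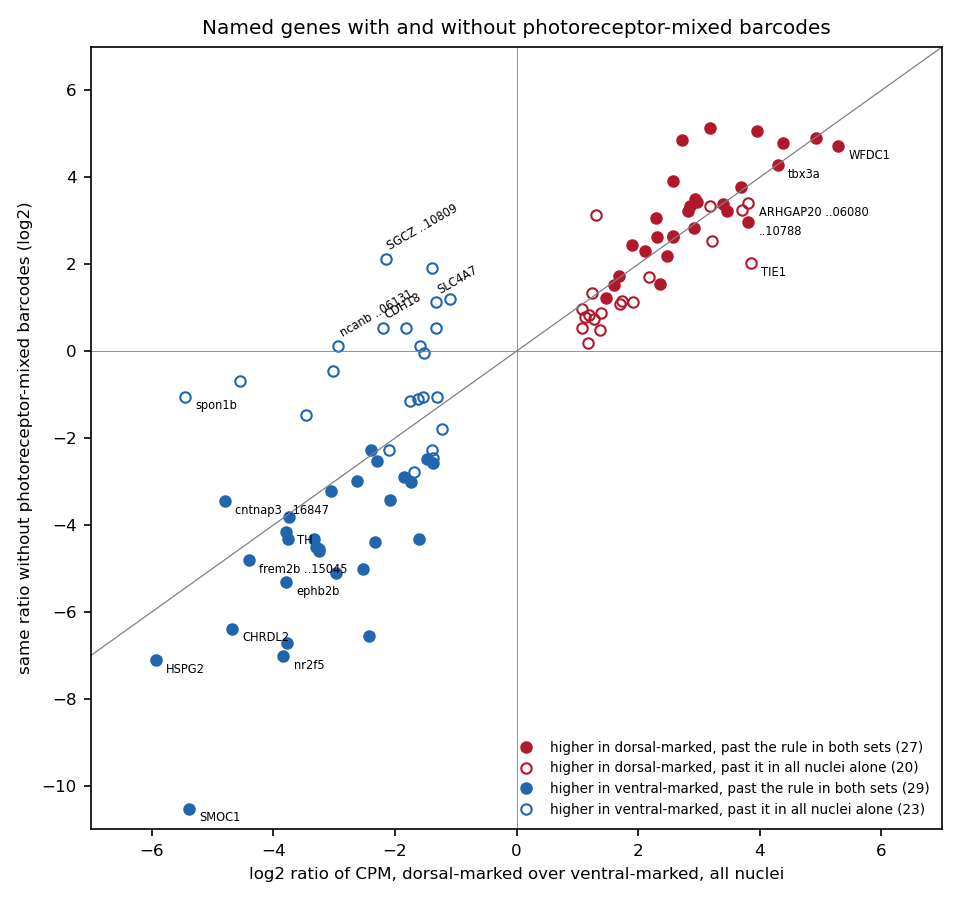
Log2 ratio of CPM, dorsal-marked over ventral-marked, of the named genes past the 2-fold rule over all Müller nuclei (horizontal axis) and without photoreceptor-mixed barcodes (vertical axis). Filled points stayed past the rule, 27 higher in dorsal-marked and 29 in ventral-marked nuclei, open points did not, a count of 0 is plotted at its bound, and the grey diagonal marks equal ratios. Points above the horizontal zero line on the left are genes higher in ventral-marked nuclei over all nuclei and not without the mixed barcodes, such as SGCZ at 2.13 and SLC4A7 at 1.12.

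The same contrast was made in all other nuclei, which pool many cell classes. The arm markers were found unequally in these classes. A tbx5 UMI was found in 4.87% of rod nuclei and VAX2 in 33.2%, against 11.1% and 41.4% of all nuclei outside the Müller set. Position and cell class cannot be told apart in these ratios, so they do not show whether a difference was shared. With the same arm markers, 271 dorsal-marked and 2089 ventral-marked nuclei lay outside the Müller set, and 166 of 15267 measured genes (1.09%) were higher in dorsal-marked and 372 (2.44%) in ventral-marked nuclei. Of the 280 genes higher in dorsal-marked Müller nuclei, 276 were measured there, and 10 were past the rule in the dorsal and 11 in the ventral direction. Of the 547 genes higher in ventral-marked Müller nuclei, 6 were past it in the dorsal and 23 in the ventral direction. EPHB3 was one of these 23 with a log2 ratio of -2.09 (95% interval -2.19 to -1.99) outside the Müller set. No test of the difference between Müller glia and other nuclei was made.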

How the data were processed

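The authors deposited raw UMI counts for each barcode and gene, with no normalization, and tables of transcript counts and gene numbers per barcode, per the file headers. Aligner, genome build, annotation and barcode filter were not given in the sources used here, and reads were not reprocessed. The matrix has 119839 barcodes and 22934 genes. Of the 17517 genes with a symbol, 4137 share it with another gene and are named with their identifier where a value is given, since reads of near-identical copies may be split between them.

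UMIs were summed per arm and retina and divided by the total to give CPM, and ratios are log2 ratios of CPM, dorsal-marked over ventral-marked, computed with numpy 2.4.6, scipy 1.17.1 and pandas 2.3.3. The size rule and the 95% exact conditional (Clopper-Pearson) intervals were tested on simulated counts. These were drawn with Poisson error alone from the pooled profile of both arms. The simulation held no variation between nuclei or retinas, so it cannot show how the rule behaves under such variation. The arm genes were left out of the counts of genes. With 2 retina names that match no label, a design with at least 3 animals per arm was not available and no p-value is given.

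The Müller rule, the arms, the 22 gene families and the marker lists were chosen with earlier results of these data known. Named genes are, per family, up to 6 past the rule with UMIs in at least 10 nuclei, ranked by the interval bound nearest to 0, and up to 2 with the most UMIs that did not pass, further the 10 genes per direction whose bound is largest, the genes of the rules and a fixed set of dorsoventral genes. Doublet scores were computed per sublibrary with Scrublet in scanpy 1.11.5. Its own threshold marked 0.063% of nuclei in one sublibrary and 36.7% in the other, where it was 0.0589. That value was used for both in an alternative that leaves out high scores, and no doublet was removed otherwise. Scores lay above it in 37% of all nuclei and 51.6% of Müller nuclei. The alternative kept 40 of 63 dorsal-marked and 106 of 224 ventral-marked nuclei. Müller nuclei were clustered with leidenalg 0.10.2 on 20 principal components of 1999 variable genes at resolution 0.5. Alternatives comprise edgeR 4.0.16 TMM library sizes, other minima and folds, thinning to 2000 UMIs per nucleus, stricter rules for nuclei and arms, and sets without mixed barcodes, high doublet scores or 1 retina or sublibrary.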

Additional observations from a re-analysis of the deposited data

Results flagged for a closer look

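Of the 280 genes past the 2-fold rule with the dorsal-marked arm higher in Müller nuclei, 11 ran the other way among all other nuclei. There the ventral-marked arm was at least 2-fold higher in each retina. The reverse held for 6 of the 547 genes higher in ventral-marked Müller nuclei. Over all 15267 genes measured in other nuclei, 372 (2.44%) were past the rule in the ventral and 166 (1.09%) in the dorsal direction. The 4 genes given here are among the 11 and among the named genes. The difference between Müller and other nuclei was not tested. CLDN19 had a log2 ratio, dorsal-marked over ventral-marked, of 1.90 in Müller nuclei and -1.63 in other nuclei, with 20 UMIs in dorsal-marked and 547 in ventral-marked nuclei of the second set. The integrin chain ITGA9 was at 2.97 in Müller nuclei and -1.58 in other nuclei. A copy of the collagen COL6A3 (ENSABLG00000008319) was at 1.31 in Müller nuclei, from 11 dorsal and 16 ventral UMIs, and -1.23 in other nuclei. EBF3 was at 6.38 in Müller nuclei and -4.92 in other nuclei, in each case with few UMIs in 1 of the arms.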

How the results depend on the processing

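The counts behind the report were 280 genes higher in dorsal-marked and 547 in ventral-marked nuclei, of which 49 and 75 were matrix, adhesion and signalling genes. With TMM library sizes, minima of 10 or 50 UMIs, a stricter marker rule or at least 2 arm UMIs, each of these counts stayed within 1.5 times of its value. A minimum of 1000 UMIs per nucleus removed no nucleus of either arm, so it could not change them. With no minimum 459 genes were higher in dorsal-marked nuclei. After thinning to 2000 UMIs per nucleus the counts were 136 and 269 genes, with 26 and 36 in the families. Without mixed barcodes 308 genes were higher in ventral-marked nuclei, 48 of them in the families. Without high doublet scores 362 were, and without the top nucleus of each gene 885. Without mixed barcodes and high doublet scores, 329 genes were higher in ventral-marked nuclei, and 32 family genes were higher in dorsal-marked nuclei. Sublibrary s1 alone gave 48 family genes higher in ventral-marked nuclei. Within cluster 1 of the Müller nuclei, 182 genes were higher in ventral-marked nuclei, with 26 and 26 family genes. These totals do not show how many of the same genes were kept. Of the 280 and 547 genes, 102 and 114 stayed past the rule without mixed barcodes, where 69 and 387 had too few UMIs. Without high doublet scores 105 and 120 stayed past it, and after thinning 77 and 95. Sublibrary s1 kept 138 and 166, sublibrary s2 kept 155 and 216, and cluster 1 kept 61 and 48. At 1.5-fold the counts were 807 and 1416 (112 and 134 in the families), and at 3-fold 102 and 136 (29 and 32). With 1 retina left out the counts ranged from 560 to 570 genes higher in dorsal-marked and from 1131 to 1493 in ventral-marked nuclei, with 75 to 94 and 101 to 154 family genes, since the rule then asks for 1 retina only.

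Directions changed for some genes. Among them was skia, not past the rule, at -0.28 over all nuclei. It was at 0.79 without mixed barcodes and 0.72 without high doublet scores. Without mixed barcodes the log2 ratio was 0.13 for ncanb (ENSABLG00000006131), 0.54 for dtnbb, CDH18 and Col7a1, 2.13 for SGCZ (ENSABLG00000010809), 1.12 for SLC4A7, 0.13 for slc38a3a (ENSABLG00000017762), 1.90 for TENM2 and 1.19 for jag1b (ENSABLG00000022074). Without high doublet scores it was 0.67 for ncanb, SGCZ and Col7a1, 0.080 for EPHB1 (ENSABLG00000015273) and 0.12 for jag1b. All of these but jag1b had under 20 UMIs left there. The same holds for ncanb, SGCZ and Col7a1 in the smaller set without high doublet scores and mixed barcodes. Without both it was 0.51 for ncanb, SGCZ, slc38a3a and Col7a1, 1.16 for SLC4A7 and jag1b and 1.38 for TENM2. Within cluster 1, with 10 dorsal-marked nuclei, it was -0.40 for CLDN19 and VANGL1 (ENSABLG00000001626), -0.47 for CNTN5 and -0.25 for VANGL2 (ENSABLG00000004924) and BMP4. These values rest on few dorsal UMIs, with 3 for CLDN19, 2 for CNTN5 and 1 each for VANGL1 and VANGL2. PTN (ENSABLG00000007771) had 0 dorsal and 24 ventral UMIs there, a ratio of at most -0.075. In sublibrary s1 COL6A3 (ENSABLG00000008319) was at -0.48, and after thinning EPHB1 was at 0.48 and GJD2 at 0.80. In the nuclei with the lower level of other cells' markers, GFAP was at -0.074 and Col7a1 at 0.20. The causes were not tested.

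Those last 2 settings, on other cells' markers and on both exclusions together, were added after the data were seen. The 2-fold rule itself compares the arms within each retina. Both arms were measured in each retina, but no paired test was made, since there are only 2 retina names and they match no label. Depth limits the dorsal-marked arm most, with 63 nuclei and 582658 UMIs in all.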

Other observations

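Nuclei of the Müller set that carried neither arm marker or both of them lay outside the comparison. In the 97 nuclei with neither, efnb2a (ENSABLG00000001777) stood at 354 CPM, sema3h at 482 CPM and EPHB3 at 1381 CPM. In the 52 nuclei with both, these genes stood at 218, 151 and 1848 CPM. The retinoic acid enzyme ALDH1A2 had 134 CPM in nuclei with neither marker and 39.7 CPM in nuclei with both. Of the nuclei with both markers 94.2% were photoreceptor-mixed, and their median depth was 18089.5 UMIs, against 29.9% and 3624 UMIs for nuclei with neither.

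Müller nuclei fell into 5 clusters made without the arm genes. A cluster of 78 nuclei held 44 of the 63 dorsal-marked and 7 ventral-marked nuclei, with 2.56% photoreceptor-mixed barcodes. A cluster of 126 nuclei held 0 dorsal-marked and 90 ventral-marked nuclei, with 7.94% mixed, and a cluster of 26 nuclei held 0 and 16, with 7.69% mixed. The remaining clusters, of 134 and 72 nuclei, were 99.3% and 95.8% mixed, with 10 and 9 dorsal-marked and 69 and 42 ventral-marked nuclei. SMOC1 stood at 5855 CPM in the cluster of 126 nuclei and 227 CPM in the cluster of 26, which held TH at 505 CPM.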
